A study of Ovis aries with 24 samples.

Results

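At d5, the epithelium of the abomasum was compared with that of the rumen in 6 of the 24 RNA sequencing libraries of the series, chosen by their labels (abomasum or rumen, Day 5), with 3 libraries for each chamber. The series as a whole holds 3 libraries of each of rumen, reticulum, omasum and abomasum from sheep (*Ovis aries*) aged 5 or 10 d, and its labels name no treatment. The study's methods describe the d5 rumen samples as taken from male Hu lambs raised with their mothers on ewe's milk, and the labels state that the muscle layer was removed before RNA extraction from each chamber. The labels do not say whether an abomasum and a rumen library of the same number came from the same lamb. The p-values therefore measure the spread between these libraries.

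The abomasum is the glandular chamber of the ruminant stomach. Its mucosa holds mucous, chief and parietal cells, which make mucus, digestive enzymes and acid, and in the suckling lamb milk is led past the rumen into it. The rumen is lined by a stratified squamous epithelium, like the reticulum and the omasum, and becomes a fermentation chamber as solid feed is taken. The deposited table names its 27054 genes by Ensembl identifier only. The list of 35057 sheep genes of RefSeq at hand gave no Ensembl identifiers, so that none could be paired with a symbol. The marker genes of these cell types could not be looked up, and the labels could not be checked against them. Genes are therefore given by their rank, and the 2 leading genes found in each chamber only are also given by identifier.

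The counts of the abomasum were held by far fewer genes than those of the rumen. In the abomasum, 50% of the counts were held by 35, 285 and 12 genes in libraries 1, 2 and 3. In the rumen, the same share took 541, 508 and 556 genes. The 10 most abundant genes took 41.5%, 22.1% and 49.2% of the counts in the abomasum, against 12.5%, 14.1% and 12.3% in the rumen. Every abomasum library lay outside the range of the rumen for both measures. The difference in the share of the 10 leading genes was 24.6 percentage points (abomasum 37.61% ± 13.97, rumen 12.97% ± 1.01, SD, n = 3 each), with a two-sided exact permutation p of 0.1, which is the smallest that 3 against 3 libraries allow. The number of genes holding 50% of the counts was 111 ± 151 in the abomasum and 535 ± 24.6 in the rumen (SD, n = 3), again with an exact permutation p of 0.1. Adjusted over the 3 measures of this family, both p-values were 0.15.

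**Figure D1:**
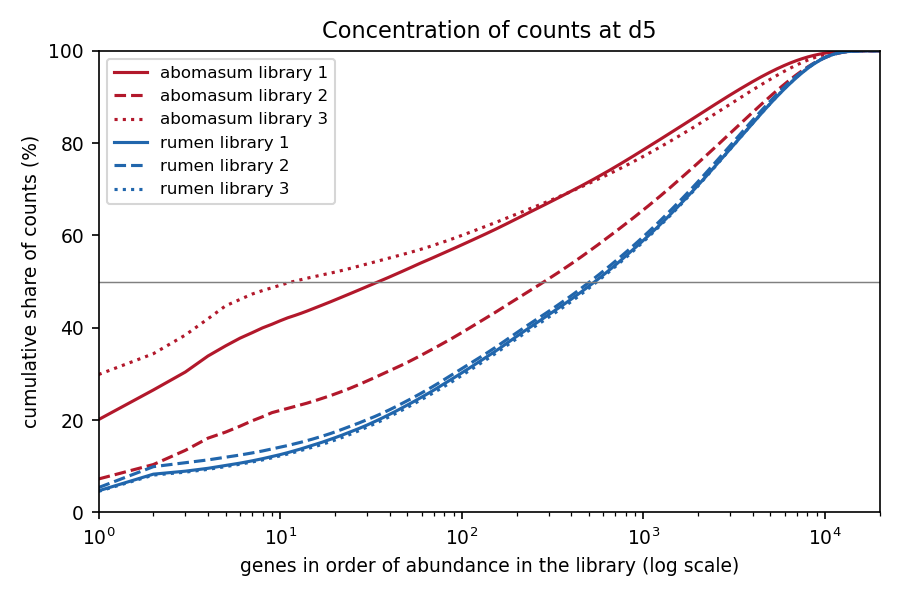
Cumulative share of the counts of a library (vertical axis, %) held by its genes in order of abundance (horizontal axis, log scale), with 1 line for each of the 3 abomasum and 3 rumen libraries at d5. The grey line marks 50%, which abomasum libraries 1, 2 and 3 reach at 35, 285 and 12 genes and the rumen libraries at 508 to 556 genes.

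The number of genes found in a library did not separate the chambers. At least 10 counts were seen for 12739, 14458 and 13668 genes in abomasum libraries 1, 2 and 3 and for 14354, 14044 and 14213 genes in the rumen libraries. Abomasum library 2 held more such genes than any rumen library and the other two abomasum libraries fewer, so that the ranges overlapped. The mean difference was -582 genes (abomasum minus rumen), with an exact permutation p of 0.4, and adjusted over the family the p was 0.4. It was -141 genes without abomasum library 1 and -1000.2 without abomasum library 2. Total counts were 14060696, 15027252 and 17073655 in the abomasum and 15393591, 13041697 and 14981877 in the rumen, so that 1 count stood for 0.0586 to 0.0767 CPM (the count scaled to the library total). Thinned to the lowest of these totals, the abomasum libraries still held 12615, 14286 and 13285 genes at 10 counts, and the rumen libraries 14035 to 14132.

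The abomasum libraries differed from each other more than the rumen libraries did. Divided by its degrees of freedom, the chi-square of the counts of a pair was 164 for abomasum libraries 1 and 3, 307 and 394 for the pairs with library 2, and 20.2 to 27.8 in the rumen. Pearson's r across genes on the log2(CPM + 1) scale was 0.939 to 0.968 within the abomasum, 0.993 in each rumen pair and 0.856 to 0.9 between the chambers; genes are not independent replicates. Among 13240 genes with a mean of 1 CPM or more in the abomasum and a count in every library, the median SD of log2 CPM between libraries was 0.56, against 0.18 for 13673 genes of the rumen. A spread of more than 2-fold between the highest and lowest library was seen for 53.5% of these genes in the abomasum and 9.64% in the rumen. The chi-square and these spreads are relative to library totals. The scaling factors of TMM (trimmed mean of M-values) were 0.623, 1.06 and 0.716 for abomasum libraries 1, 2 and 3. In the rumen they were 1.25 to 1.32. Part of the abomasum spread is thus common to the genes of a library, and the spread after TMM scaling was not computed.

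A gene was taken as found in 1 chamber only when it had at least 10 counts in each of the 3 libraries of that chamber and 0 counts in each of the 3 libraries of the other. These values choose the genes, so that their d5 levels are a description without a test. Of 12401 genes with 10 counts in every abomasum library, 55 (0.444%) were found in the abomasum only. Of 13584 such genes of the rumen, 78 (0.574%) were found in the rumen only. Most genes were shared, with 11781 at 10 counts or more in all 6 libraries and 6688 at 0 counts in all of them. Another 565 genes of the abomasum and 1725 of the rumen had counts in the other chamber without reaching 10 in every library there. A count of 0 over the 3 rumen libraries allows a level of up to 0.0691 CPM, and over the 3 abomasum libraries up to 0.065 CPM (3 counts over the group, counting error only). In whole tissue, fewer cells of a type and less RNA per cell cannot be told apart, and both chambers were sampled as tissue.

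The genes found in 1 chamber only were weakly expressed and took a very small share of the counts. The 55 genes of the abomasum took 0.0842%, 0.0776% and 0.0832% of the counts of its libraries (0.0816% ± 0.00357, SD, n = 3), and the 78 genes of the rumen took 0.104%, 0.11% and 0.0899% (0.102% ± 0.0105, SD, n = 3). The mean level of an abomasum gene ran from 0.743 to 97.3 CPM with a median of 5.59 CPM, and 20 of the 55 exceeded 10 CPM. In the rumen list the mean level ran from 0.833 to 165 CPM with a median of 4.42 CPM, and 22 of the 78 exceeded 10 CPM. The 10 leading genes held 64.3% of the summed level of the abomasum list and 59.7% of that of the rumen list. Gene length does not enter CPM, and the ranks therefore order genes by counts and not by molecules.

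At the edge of the rule, 13 of the 55 abomasum genes and 6 of the 78 rumen genes had 10 to 14 counts in their lowest library. Just outside it, 31 abomasum genes and 39 rumen genes had 0 counts in the other chamber but 5 to 9 counts in their own lowest library. A further 27 abomasum genes and 39 rumen genes missed the rule by a single count over the 3 libraries of the other chamber. The most abundant of these had a mean of 136 CPM in the abomasum and 71.0 CPM in the rumen. Rumen library 3 bore on the abomasum list and abomasum library 2 on the rumen list. Without rumen library 3, 81 genes were found in the abomasum only, with 0.199% of its counts. Without abomasum library 2, 137 genes were found in the rumen only, with 0.197% of its counts. Leaving out any other library gave 65 to 71 genes for the abomasum and 83 to 95 for the rumen, and with both libraries left out together, a choice made after seeing the data, the lists held 100 and 167 genes.

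The most abundant gene found in the abomasum only, ENSOARG00000003784, had 1886, 696 and 1905 counts in abomasum libraries 1, 2 and 3, or 134, 46.3 and 112 CPM, and 0 counts in each rumen library. Library 2 was thus the lowest of the abomasum libraries. Against 3 counts over the rumen, its mean of 97.3 CPM ± 45.6 (SD, n = 3) was at least 1409-fold higher in CPM over library totals. At d10 it had 15.1, 122.6 and 22.5 CPM in the abomasum and 0 counts in all 3 rumen libraries.

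ENSOARG00000007761, the next gene of the list, had 1551, 1424 and 1188 counts in the abomasum libraries, or 110, 94.8 and 69.6 CPM, and 0 in the rumen. Its libraries lay closer together than those of ENSOARG00000003784. Over library totals, its mean of 91.5 CPM ± 20.6 (SD, n = 3) was at least 1325-fold higher than the rumen. At d10 it ran from 80.8 to 173 CPM in the abomasum, and a single count was seen in 1 rumen library.

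The genes of rank 3 and 4 differed from the first in which abomasum library was high. The third gene had 22.8, 136 and 57.9 CPM in libraries 1, 2 and 3, and the gene of rank 4 had 43.5, 127 and 21.6 CPM. Library 2 was the highest for both and the lowest for the first, so that the genes found in the abomasum only did not move together between libraries. Over the 55 genes the highest library was library 1 for 13, library 2 for 19 and library 3 for 23. The highest and lowest library differed by more than 2-fold for 37 of the 55 genes, with a median of 2.92-fold and a maximum of 20.1-fold. The median SD of log2 CPM was 0.82 for the 55 genes and 0.58 for 12079 genes of the abomasum with a mean of 1 to 100 CPM. These sets were not matched for level, and counting error weighs more at low counts.

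In the rumen, ENSOARG00000001320 led the genes found there only. It had 2991, 1984 and 2232 counts in rumen libraries 1, 2 and 3, or 194, 152 and 149 CPM, and 0 counts in each abomasum library. Over library totals, its mean of 165 CPM ± 25.3 (SD, n = 3) was at least 2541-fold higher than the abomasum. The TMM factors, 1.25 to 1.32 in the rumen and 0.623 to 1.06 in the abomasum, would lower this bound, which was not computed. The gene was also found in the reticulum at d5, at 55.6 to 63.6 CPM, so that it was found in the rumen only with respect to the abomasum. At d10 its level in the rumen was 17.8 to 30.4 CPM, below every d5 rumen library.

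ENSOARG00000007770, the next gene of the rumen list, had 813, 1457 and 1118 counts in the rumen libraries, or 52.8, 112 and 74.6 CPM, and 0 in the abomasum. Over library totals, the mean was 79.7 CPM ± 29.8 (SD, n = 3), at least 1227-fold higher than the abomasum. TMM scaling would lower this bound too. In the reticulum at d5 it had 38.3 to 103 CPM and in the rumen at d10 40.7 to 101 CPM, ranges that overlapped with that of the rumen at d5. Over the 78 genes the highest and lowest rumen library differed by more than 2-fold for 38. The median SD of log2 CPM was 0.51, against 0.19 for 11821 rumen genes with a mean of 1 to 100 CPM. These sets were not matched for level either.

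The rule of 0 counts left out the abundant genes. Of 1162 genes with a mean of 100 CPM or more in the abomasum, 0 had 0 counts in all rumen libraries, and of 1852 such genes of the rumen, 1 had 0 counts in the abomasum, the ENSOARG00000001320 described above. A relative rule was therefore set beside it, under which a gene had at least 10 counts in each library of its chamber, and in every library of the other chamber at most 1% of its lowest CPM. It gave 114 genes of the abomasum and 178 of the rumen, hereafter the 1% lists, which hold all 55 and all 78 genes of the stricter lists. The 114 genes took 42.7%, 21.8% and 46.8% of the counts of abomasum libraries 1, 2 and 3 (37.1% ± 13.4, SD, n = 3). The 178 genes took 12.6%, 14.6% and 12.4% of those of the rumen (13.2% ± 1.22, SD, n = 3). Fewer genes thus held a larger share in the abomasum, and every abomasum library lay above the rumen range. Without rumen library 3 the abomasum list held 137 genes with 37.5% of the counts, and without abomasum library 2 it held 143 genes with 45.3%. Without abomasum library 2 the rumen list held 261 genes, with 13.8% of the counts, and without abomasum library 2 and rumen library 3 together it held 302.

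**Figure D2:**
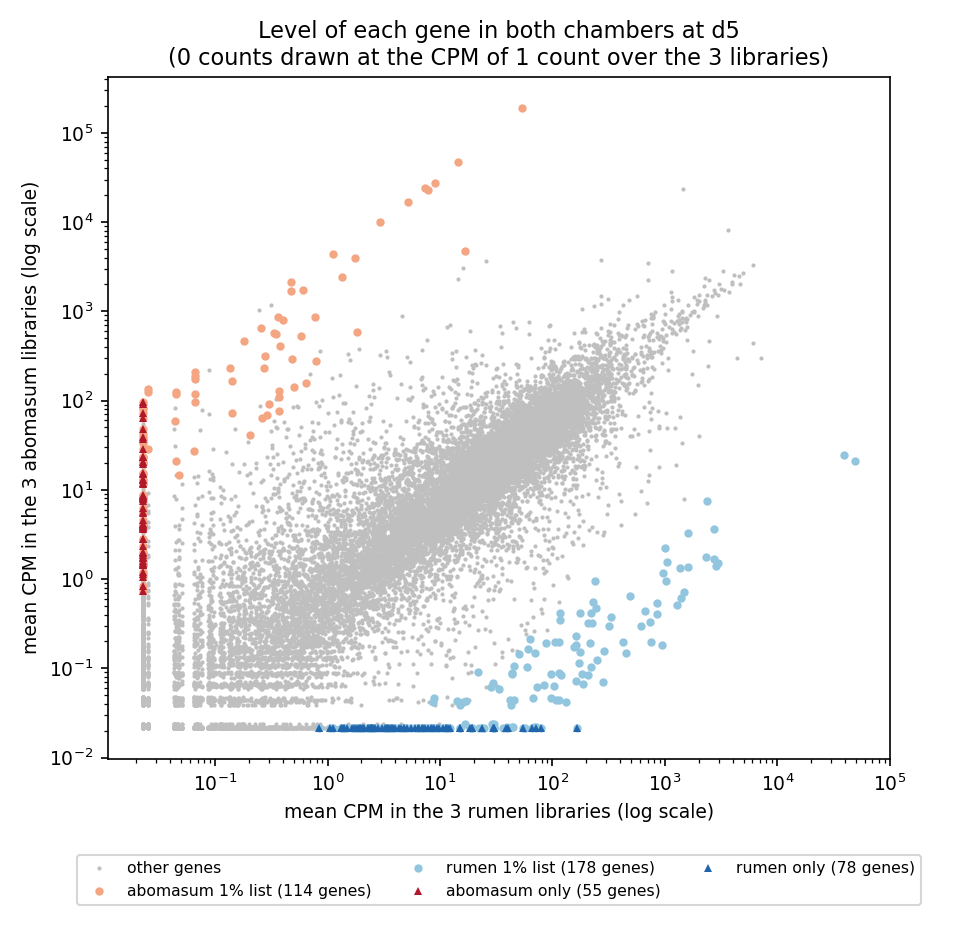
Mean CPM of each gene in the 3 abomasum libraries (vertical axis, log scale) against the 3 rumen libraries (horizontal axis, log scale) at d5; genes with 0 counts in a chamber are drawn at the CPM of 1 count over its 3 libraries. Triangles are the 55 and 78 genes found in 1 chamber only, which end at 97.3 and 165 CPM, and circles the remaining genes of the lists of 114 and 178 genes, which reach 190837 CPM in the abomasum and 48845 CPM in the rumen.

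The share of the abomasum rested on a handful of genes. The most abundant gene took 20.1%, 7.25% and 29.9% of the counts of abomasum libraries 1, 2 and 3, and made up 51.4% of the summed level of the 114 genes. The 10 leading genes of the list made up 94.8% of it. In the rumen, the most abundant gene took 4.69%, 5.39% and 4.57% of the counts and the next gene 3.60%, 4.52% and 3.52%, and no other rumen gene had a mean above 10000 CPM. In the abomasum 8 genes exceeded that level, 7 of which were in the 1% list. The remaining gene, of rank 5 by abundance, had 1.66%, 1.28% and 4.04% of the counts in the abomasum libraries and 1396, 1870 and 1048 CPM in those of the rumen, or 6.17% of its mean level in the abomasum.

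Genes at such low relative levels were more frequent among abundant genes in both chambers. A mean in the other chamber of at most 1% was seen for 240 of 13360 genes (1.8%) at 1 CPM or more in the abomasum, 60 of 1162 (5.16%) at 100 CPM or more and 19 of 72 (26.4%) at 1000 CPM or more. For the rumen these were 254 of 13679 (1.86%), 68 of 1852 (3.67%) and 17 of 107 (15.9%). A low gene can reach 1% only with almost 0 counts in the other chamber, so that these shares depend on depth at low levels.

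The leading abomasum genes did not keep their proportions between libraries. The most abundant gene was lowest in library 2, at 72518 CPM, and highest in library 3, at 298772 CPM. The sixth gene of the 1% list was highest in library 2, with 10599, 26396 and 13904 CPM in libraries 1, 2 and 3. Within a library, which does not depend on scaling, the first gene stood at 19.0, 2.75 and 21.5 times the sixth. It stood at 5.17, 2.32 and 25.9 times the third gene of the list. At d10 these ratios were 0.517 to 6.15 and 0.815 to 3.67, so that in 1 of the 3 d10 libraries the first gene was below both of the others.

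**Figure D3:**
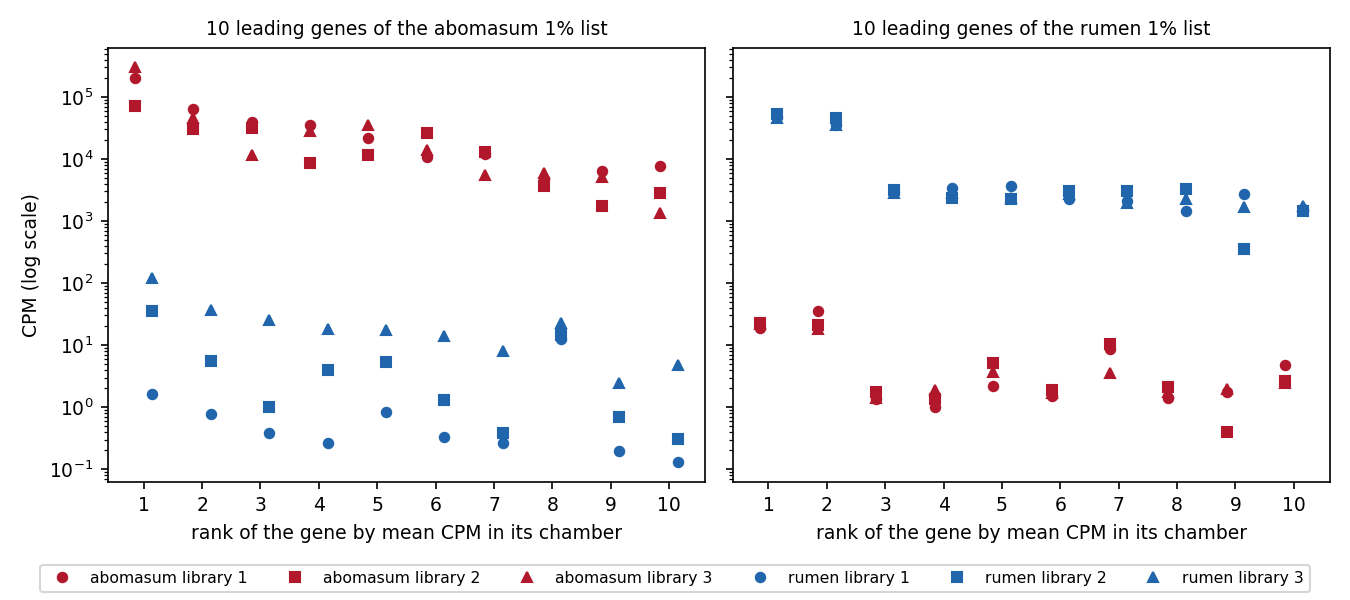
CPM (vertical axis, log scale) of the 10 leading genes of the abomasum list of 114 genes (left) and the rumen list of 178 genes (right), in order of their mean CPM in their own chamber, with 1 symbol for each of the 6 libraries at d5. In the left plot rumen library 3 lies above rumen libraries 1 and 2 for every gene shown, and 7 of the genes exceed 10000 CPM in the mean of the abomasum; in the right plot the 2 leading rumen genes lie between 18.2 and 34.8 CPM in the abomasum libraries.

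Counts of the leading abomasum genes were seen in every rumen library, and most of all in library 3. The most abundant gene had 1.62, 36.0 and 122 CPM in rumen libraries 1, 2 and 3. For the 7 leading genes of the list the level in rumen library 3 was 0.0639% to 0.0935% of the mean in the abomasum, a narrow range, with 121 to 1826 counts. It was 0.00366% to 0.023% in library 2 and 0.000851% to 0.00368% in library 1. The gene of rank 8 in the list was at 12.7, 14.4 and 22.9 CPM in the 3 rumen libraries, which differed less than 2-fold. Summed over the 114 genes, the rumen libraries held 0.00686%, 0.0222% and 0.0794% of the level of the abomasum, and 77, 72 and 60 of the genes had 0 counts in them. In the other direction the 178 rumen genes stood at 0.0727%, 0.0747% and 0.0584% of the rumen level in abomasum libraries 1, 2 and 3, with 94 to 106 genes at 0 counts. The rule chose these genes as low in every abomasum library, so that their levels cannot show whether the libraries were alike. Without abomasum library 1, 2 or 3 the rumen list held 189, 261 and 191 genes. Whether these low counts come from the cells of the chamber was not tested.

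The d10 libraries were not used to choose the lists. Of the 55 genes found in the abomasum only at d5, 52 were higher in every d10 abomasum library than in any d10 rumen library, in CPM with TMM scaling (trimmed mean of M-values), against 21.8% of all 20590 genes with a count at d10. Of the 78 rumen genes, 72 were lower in every d10 abomasum library than in any d10 rumen library, against 23.8% of all genes. Both shares, 94.5% and 92.3%, were above the background. The full rule was met again by fewer genes. At d10 it was met by 24 of the 55 abomasum genes (43.6% of the d5 list and 41.4% of the 58 genes found at d10). It was met by 24 of the 78 rumen genes (30.8% of the d5 list and 32.9% of the 73 genes found at d10). Of the 55 abomasum genes, 41 had 10 counts in every d10 abomasum library and 29 had 0 counts in the d10 rumen, where the highest single count was 4. Of the 78 rumen genes, 53 had 10 counts in every d10 rumen library and 36 had 0 counts in the d10 abomasum, where the highest single count was 8.

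The 1% lists were met again by a larger share of their genes. At d10 the same rule was met by 83 of the 114 abomasum genes (72.8% of the d5 list and 57.2% of the 145 genes found at d10) and by 118 of the 178 rumen genes (66.3% and 62.4% of 189 genes). The 114 genes took 30.6% to 34.1% of the counts of the d10 abomasum, within the range of 21.8% to 46.8% at d5. The 178 genes took 8.43% to 11.6% of those of the d10 rumen, below each of the d5 rumen libraries. This share is weighted to the 2 leading genes, whose means were 48845 and 38776 CPM at d5 and 13875 and 18356 CPM at d10. Of the 178 genes, 78 had a higher mean CPM at d10 and 100 a lower one, so that the share does not describe the list gene by gene. Among the 78 genes found in the rumen only, 18 (23.1%) had all d10 rumen libraries below all those of d5 in CPM, against 9.55% of the 13584 genes with 10 counts in every d5 rumen library. All d10 libraries were above those of d5 for 13 of the 78 (16.7%), against 29.6% of these genes. No test was made of either difference. Together the 78 genes took 0.119% to 0.227% of the counts of the d10 rumen, above each of the d5 rumen libraries. Among the 55 genes of the abomasum, 6 were below (10.9%, against 1.60% of 12401 genes) and 2 above (3.64%, against 7.86%). These numbers are small, and no test was made of either difference. Together the 55 genes took 0.078% to 0.142% at d10, a range that overlapped with that of d5.

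In the reticulum most of the rumen genes were found at 10 counts or more and almost none of the abomasum genes, while the omasum libraries of d5 differed among themselves. Of the 78 genes found in the rumen only, 67 had 10 counts in every reticulum library of d5, and 64 did so in every omasum library of d10. The same numbers over all 13584 genes with 10 counts in every d5 rumen library are not given here. The 67 and 64 are thus without a background. At d5, 0 of the 78 genes were at 0 counts in all 6 libraries of reticulum and omasum, and 62 had 10 counts in every reticulum library and in omasum library 3. In the reticulum at d5 66 of the 78 genes had a mean of 50% or more of that in the rumen. Of the 55 genes found in the abomasum only, 0 had 10 counts in every reticulum library of d5, and 47 had at most 3 counts over the 3 libraries. The list took 0.000177% to 0.000794% of the counts of the d5 reticulum, against 0.0776% to 0.0842% in the abomasum. Omasum libraries 1 and 2 of d5 stood apart from the other forestomach libraries, with 0.00775% and 0.0671%, against 0.000349% in omasum library 3. At least 10 counts were seen for 32, 51 and 1 of the 55 genes in omasum libraries 1, 2 and 3. Of the 78 rumen genes, 67, 20 and 68 reached 10 counts in these libraries, and 20 did so in all of them. Omasum library 2 was thus near the abomasum for the abomasum genes and low for the rumen genes. The 114 genes took 2.57% and 32.5% of the counts of these omasum libraries and 0.0246% of those of library 3. The omasum libraries entered no test of abomasum against rumen other than an alternative with all 24 libraries.

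**Figure D4:**
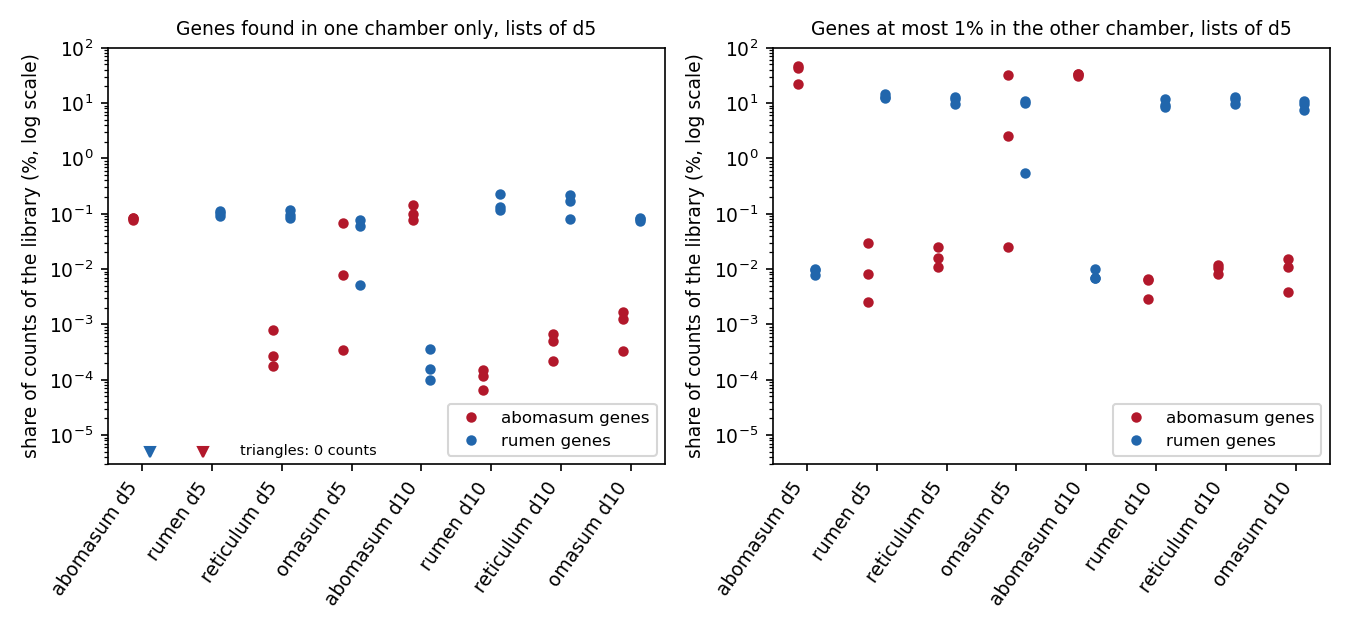
Share of the counts of each library (vertical axis, %, log scale) taken by the genes found in 1 chamber only at d5 (left, 55 abomasum and 78 rumen genes) and by the 1% lists of d5 (right, 114 and 178 genes), for the 8 groups of chamber and age (horizontal axis), with 1 point per library and triangles for 0 counts. The 178 rumen genes take 7.55% to 12.8% in reticulum and omasum except in omasum d5 library 2 (0.537%), and the 114 abomasum genes take at most 0.0294% outside the abomasum except in omasum d5 libraries 1 and 2 (2.57% and 32.5%).

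Across all genes, the chambers differed widely at d5. Of 14449 genes tested by edgeR, 4918 (34.0%) differed between abomasum and rumen at an adjusted p under 0.05, with 2596 (18.0%) higher and 2322 (16.1%) lower in the abomasum. Large changes were common, with 1204 genes at least 4-fold higher and 985 at least 4-fold lower among those called, and 138 and 136 at least 256-fold. The filter on low counts was passed by 53 of the 55 genes found in the abomasum only and by 77 of the 78 found in the rumen only, whose counts in their own chamber carried them through it, so that their calls say nothing further. The split in direction depended on the scaling. With TMM 52.8% of the genes called were higher in the abomasum, and with library totals alone 22.5% (1263 higher, 4362 lower), since the median log2 fold change of all genes was -0.04 with TMM and -0.72 with library totals. The TMM factors were 0.623, 1.06 and 0.716 for the abomasum libraries and 1.25 to 1.32 for those of the rumen.

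Of the 9531 genes that were not called, 3323 had a 95% interval of the log2 fold change within 1 in either direction, so that a 2-fold difference lay outside the interval. For the others the interval reached a 2-fold difference, so that such a difference was not excluded. The intervals are not adjusted for the number of genes tested, and some of them leave out 0 for genes not called. By edgeR 6503 genes had an unadjusted p under 0.05, against the 4918 called. The number of calls fell to 2970, 3001 and 3042 without rumen library 1, 2 or 3 (1531, 1582 and 1627 higher and 1439, 1419 and 1415 lower in the abomasum). The fit estimates 1 spread per gene for both chambers together, although the abomasum libraries differed more from each other. The number of calls differed with the chamber that lost a library, and whether this comes from the shared spread was not tested. Without abomasum libraries 1, 2 or 3 the number of calls was 6091, 5790 and 3989.

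The calls were largely met again in the libraries of d10. Of the 2596 genes higher in the abomasum at d5, 2544 were tested at d10, and 2032 of these (79.9%) were again called higher by edgeR, against 20.7% of all genes tested at d10. Of the 2322 genes lower in the abomasum, 2232 were tested and 1513 (67.8%) were again called lower, against 18.6% of all. A call in the opposite direction was made for 2 and 4 genes.

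Part of the concentration of counts in the abomasum remained without the 1% lists, an alternative chosen after seeing the data. With the genes of both lists left out, 50% of the remaining counts were held by 441, 659 and 602 genes in abomasum libraries 1, 2 and 3 and by 771, 781 and 782 genes in the rumen. The 10 most abundant of the remaining genes took 9.99%, 6.67% and 12.7% of the remaining counts in the abomasum, against 5.66% to 5.81% in the rumen. Every abomasum library still lay outside the range of the rumen for both measures. With these genes left out and the remaining counts thinned to the same total, the number of genes at 10 counts was 12609, 13804 and 13367 in the abomasum and 13369 to 13472 in the rumen, with a mean difference of -153 genes.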

How the data were processed

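RNA of the stomach epithelium was sequenced in 24 libraries, and the 3 abomasum and 3 rumen libraries of d5 were compared, grouped by chamber and age as labelled. The values are raw counts per Ensembl gene in 1 table, deposited without normalization. Of the upstream tools, CASAVA 1.8 and TopHat2 2.0.13 are listed in the submitters' processing notes. Genome build, annotation, counting program and strandedness: not given in the sources used here. Reads of overlapping or near-identical genes may be split. CPM was computed over the library total. Differences were tested with edgeR 4.0.16 (TMM, filterByExpr, quasi-likelihood test, two-sided, Benjamini-Hochberg, threshold 0.05) in R 4.3.3 within the 6 libraries of an age. Single measures were compared by an exact permutation test over libraries (scipy 1.17.1). In simulated counts for the d5 comparison (14449 genes, 200 changed, mean count at least 50), edgeR recovered 49% of 4-fold and 1% of 2-fold changes, and for d10 (14684 genes) 75% and 10%. Far fewer genes were changed there than the 4918 called in the data at d5. The adjusted threshold was therefore stricter in the simulation, and these shares do not give the recovery in the data. Alternatives were other scalings, filters, tools (DESeq2 1.42.0, limma 3.58.1) and samples, other limits of the lists, thinning and leaving out libraries. Genes to name were the 2 with the highest mean CPM of each list found in 1 chamber only; others are given by rank. The lists of marker genes by symbol could not be used. The comparison, lists and tests were chosen with earlier results of these data known. The limits that a count of 0 allows cover counting error only, whereas the 95% intervals of edgeR's log2 fold changes include the spread between libraries.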

Additional observations from a re-analysis of the deposited data

Results flagged for a closer look

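Some of the 55 genes found in the abomasum only at d5 had counts in each of the 12 libraries of reticulum and omasum. The comparison of abomasum and rumen does not use these libraries. A count was seen for 51 and 55 of the genes in omasum d5 libraries 1 and 2. In the other libraries of reticulum and omasum it was seen for 12 to 22 genes, and 0 to 4 genes reached 10 counts. In each of the 12 libraries the 55 genes together took a larger share of the counts than in any rumen library, where the highest share at either age was 0.000153%. That share was 26 counts in rumen d10 library 3, and the lowest share of the reticulum was 25 counts in d5 library 3. The lowest shares therefore do not differ from the rumen beyond counting error. In the reticulum the share was 0.000268%, 0.000794% and 0.000177% in d5 libraries 1, 2 and 3 and 0.000511%, 0.000678% and 0.000214% in those of d10. In the omasum it was 0.00775%, 0.0671% and 0.000349% at d5 and 0.00126%, 0.000332% and 0.00171% at d10. The share in omasum d5 library 2 was close to that in the abomasum itself (0.0776% to 0.0842%), with at least 10 counts for 51 of the 55 genes, and the other 11 libraries were at 0.00775% or less. The rumen libraries of d5 were at 0 by the rule that chose the genes, so that a comparison with them is one-sided. The source of these counts was not tested.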

How the results depend on the processing

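The limits of the lists set their size, and of 205 alternative values 57 moved while 0 reversed. Numbers of genes and shares of counts cannot be negative, so that only the differences of abomasum minus rumen could have reversed. Genes found in the abomasum only (55, 0.0816% of the counts) numbered 215, 86 and 23 with at least 1, 5 or 50 counts (0.102%, 0.0949% and 0.0699% of the counts), and took 0.0778% at 1 CPM or more. They numbered 89 (0.165%) with at most 1 count in each rumen library, 122 (0.293%) with at most 3 counts over the rumen and 114 (37.1%) under the relative rule. Genes found in the rumen only (78, 0.102%) numbered 323 and 34 with at least 1 or 50 counts (0.0894% at 50), 136 (0.207%), 175 (0.352%) and 178 (13.2%) under the same 3 rules. Leaving out each library in turn gave 65 to 81 abomasum genes with 0.0843% to 0.199% of the counts, and 83 to 137 rumen genes with 0.0978% to 0.197%. Without abomasum library 2 and rumen library 3 the lists held 100 (0.193%) and 167 (0.207%) genes, and the 1% list of the rumen 302. These fits without both libraries, the leaving out of libraries for the 1% lists and the measures without their genes were added after seeing the data.

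At d5 edgeR called 4918 genes. With a minimum log2 fold change of 1 it called 2176 (1206 higher, 970 lower in the abomasum), and with library totals 1263 higher and 4362 lower. Leaving out each library in turn gave 2970 to 6091 genes, 1531 to 3117 of them higher and 1415 to 2974 lower. At d10 edgeR called 5777 genes, 2455 with a minimum log2 fold change of 1 (1417 higher, 1038 lower), 8812 with library totals (1557 higher, 7255 lower), and 1766 to 2908 lower as each library was left out. DESeq2, limma-voom, the size factors of DESeq2, robust estimation, no filter, at least 10 counts, 12 libraries and all 24 libraries gave 3868 to 6678 calls at d5, and leaving out abomasum library 2 and rumen library 3 gave 3911. With the replicate number as a block, edgeR called 3602 genes at d5 and 5172 at d10. The deviations of same-numbered abomasum and rumen libraries of d5 correlated at -0.0629, -0.00963 and 0.00227, and those of d10 at 0.154, -0.0377 and -0.0693, so that the numbers were not taken to pair the libraries.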
